A study of Mus musculus with 27 samples.

Results

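Untreated explants of murine neural crest were compared between the 12 h and the 6 h time point of a culture series. The members were chosen by array title alone: 3 control arrays of 12 h and 3 control arrays of 6 h, 6 of the 27 arrays in the series. The other control arrays, 4 of 24 h and 4 of 48 h, entered the test to estimate the spread and are shown beside the results. No array titled as given retinoic acid (RA) entered that test. The array of 48 h replicate 3 was kept as a control by its title, though its description calls it RA treated. Each array held total RNA from dorsal neural tubes that had been split along the midline, one side of each embryo serving as control and the other receiving 1e-06 M RA in ethanol. Strain, embryonic stage and the number of embryos behind an array are not given in the labels, nor is it said whether the controls received ethanol. The explants of the 6 h arrays had first spent a night on fibronectin in medium with horse serum, so that crest cells could grow out, before the hours were counted. That step is stated for the 6 h exposures alone, and the total culture time of the 12 h explants is not given, so 12 h against 6 h does not have to mean older against younger cultures.

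Neural crest cells arise at the border of the dorsal neural tube, leave the epithelium through an epithelial to mesenchymal transition and migrate as single cells or chains. They give rise to peripheral neurons and glia, melanocytes, smooth muscle and facial cartilage and bone. An explant of the dorsal neural tube also carries neural tube epithelium and can carry surface ectoderm, mesenchyme and vessel precursors, and RNA of the whole culture was measured. Fewer cells of a type and less RNA per cell therefore cannot be told apart in any value below.

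Levels are log2 RMA intensities, in which a difference of 1 is a doubling, and the level of one gene was not compared with that of another. The 6 arrays had median intensities of 92.1 to 96.8. Their log2 values correlated by 0.9913 to 0.9966 within a group and by 0.9844 to 0.987 between groups, across probe sets. No scan day held arrays of both times: the 6 h arrays were scanned on 2 days with chips of 2 lot entries, and the 12 h arrays on 2 other days with chips of 1 other lot. The first 6 h scan came 275 days after the last 12 h scan. Hours in culture, the night on fibronectin, scan day and chip lot cannot be told apart in this comparison. The operator numbers of the scanner records were 2, 2 and 3 at 6 h and 1, 1 and 2 at 12 h. The part of the operator was not tested. The 3' minus 5' log2 signal of the beta-actin control probe sets, a sign of RNA integrity, was 1.65, 1.60 and 1.22 at 6 h and 1.83, 1.87 and 1.92 at 12 h. For Gapdh it was 1.55, 1.94 and 1.67 at 6 h and 1.08, 1.77 and 1.48 at 12 h, so the actin values did not overlap between the groups and the Gapdh values did. The part of RNA integrity in the results was not tested.

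Of 12422 probe sets tested, 531 (4.27%) passed at an adjusted p below 0.05 (limma, Benjamini-Hochberg). Of these, 275 (2.21%) were higher at 12 h and 256 (2.06%) were lower. All 531 had groups that did not overlap, against 2046 probe sets (16.5%) higher and 2038 (16.4%) lower without overlap among all tested. The median log2 difference over all probe sets was -0.00578, and the 5 and 95 percentiles were -0.502 and 0.511. Differences above 1 were more often falls, with 78 probe sets lower and 41 higher among those that passed. Called lower and called higher genes numbered 215 and 246 by symbol. With scan day as a random block the count dropped to 124, and with 1 of the 6 arrays left out it lay between 150 (without 12 h replicate 1) and 302 (without 12 h replicate 2). The 15 genes with the largest rise and the 15 with the largest fall are described first where they belong to a gene group.

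**Figure D1:**
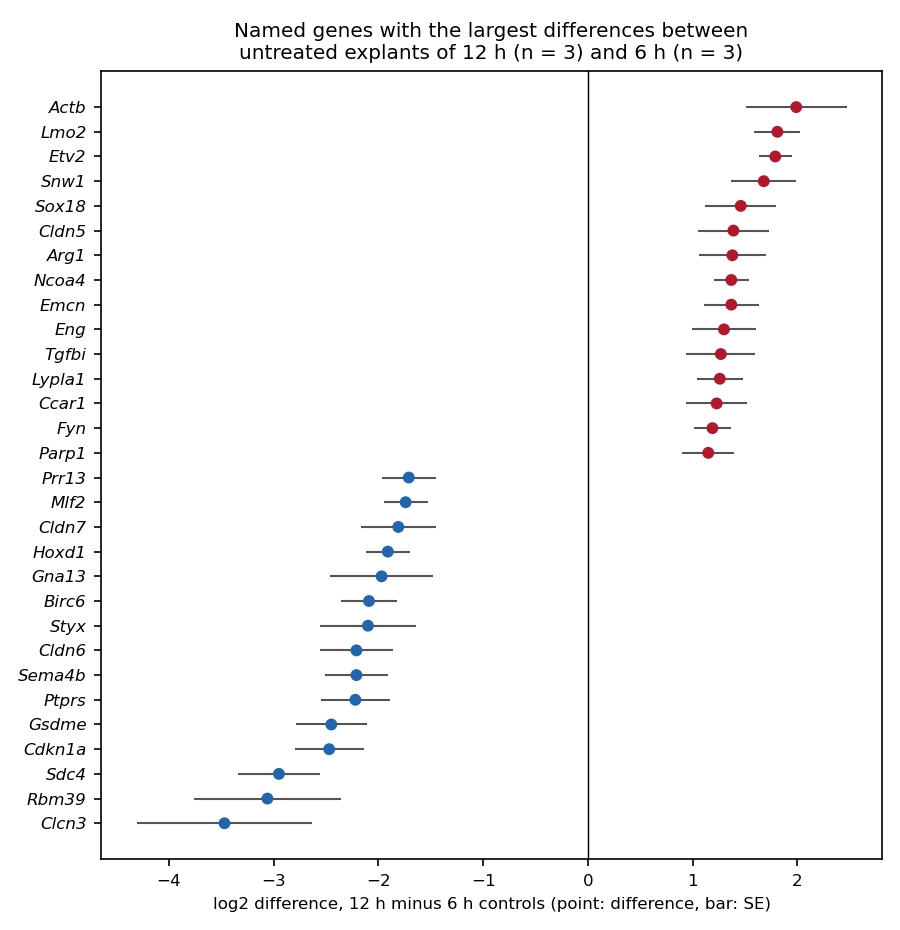
Log2 difference of 12 h minus 6 h controls for the 15 genes with the largest rise (red) and the 15 with the largest fall (blue) among probe sets that passed, with the SE of the fit as bars. The differences run from -3.47 for Clcn3 to 1.99 for Actb, and the widest bars belong to Clcn3, Rbm39, Gna13, Actb and Styx.

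Genes of early blood vessels and blood progenitors stood among the largest rises. Of the 16 measured members of an 18-gene endothelium list, 7 rose, 0 fell and 9 did not pass, and the list's median difference was 0.23. One probe set per gene gave 2.67% of 8251 genes called higher and a median of 0.00. The 7 were Etv2, Cldn5, Emcn, Eng, Tek, Cd34 and Tal1. Lmo2 and Sox18, which also serve in vessels, rose by probe sets outside that count.

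Etv2 encodes an ETS transcription factor that is required in mouse embryos for endothelial and blood progenitors. Its levels were 7.23, 6.82 and 7.50 at 6 h and 8.98, 8.85 and 9.09 at 12 h. The groups lay more than 1 log2 unit apart, and the difference was 1.79 ± 0.16 (SE), a 3.46-fold rise with an adjusted p of 0.000187 by limma. It was lower again in the later arrays, at 7.80 ± 0.19 (SD, n = 4) at 24 h and 6.44 ± 0.09 (SD, n = 4) at 48 h. Lmo2, a LIM-only adaptor in the transcription factor complex of Tal1, had levels of 6.96, 6.79 and 7.18 at 6 h and 8.81, 8.32 and 9.21 at 12 h. All 12 h arrays were above all 6 h arrays, by 1.81 ± 0.22 (SE; adjusted p 0.00111). A second Lmo2 probe set differed by 0.56 and did not pass (adjusted p 0.0616). Tal1 itself, a basic helix-loop-helix factor of blood and vessel precursors, rose by 0.72 ± 0.15 (adjusted p 0.0149), with 5.20, 5.15 and 5.24 at 6 h and 6.04, 5.49 and 6.19 at 12 h. Sox18, a SoxF transcription factor of vessel lining cells, was at 5.60, 5.24 and 5.85 at 6 h and at 7.25, 6.31 and 7.50 at 12 h by the probe set 104408_s_at. That difference of 1.46 ± 0.34 passed (adjusted p 0.0261), but the brighter Sox18 probe set, 161025_f_at, differed by 0.19 and did not (adjusted p 0.652). The Sox18 call was lost without any one array but 12 h replicate 2 and with scan day as a random block (limma, adjusted p 0.154). In all 4 genes the 12 h array of replicate 2 was the lowest of its group.

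Surface and junction genes of endothelial cells also rose. Cldn5, the main claudin of endothelial tight junctions, was at 6.32, 6.51 and 6.98 at 6 h and 8.01, 7.44 and 8.52 at 12 h, a rise of 1.39 ± 0.34 (SE; adjusted p 0.0322). Emcn, an endothelial sialomucin, was at 6.79, 6.75 and 6.99 at 6 h and 8.15, 7.87 and 8.62 at 12 h. Its rise of 1.37 ± 0.26 (adjusted p 0.0109) stood beside one of 1.21 (adjusted p 0.00705) in a second probe set, while the dimmest of its 3 probe sets differed by 0.17 (adjusted p 0.582). Within the 12 h group replicate 3 was the highest and replicate 2 the lowest for Cldn5 and Emcn, and likewise for Lmo2 and Sox18. Eng, or endoglin, a co-receptor for TGF-beta family ligands, was at 9.31, 8.76 and 8.66 at 6 h and 10.12, 10.23 and 10.30 at 12 h, so its 12 h arrays lay close together (difference 1.30 ± 0.31, adjusted p 0.0288). Tek, the angiopoietin receptor also called Tie2, rose by 1.05 ± 0.22 (adjusted p 0.0158) and Cd34, a sialomucin of vessels and blood progenitors, by 0.87 ± 0.22 (adjusted p 0.0423). A second Cd34 probe set was at 0.51 and did not pass (adjusted p 0.129). Tek stood near the lower end of the array at 6 h, at 4.34 ± 0.15 (SD, n = 3), below the 25th percentile of these arrays, which was 4.97 on average. Tek was at 5.39 ± 0.44 at 12 h.

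Several well known receptors and adhesion molecules of endothelium were not among the genes that passed. The VEGF receptor genes Kdr and Flt1 differed by 0.03 (adjusted p 0.974) and -0.42 (adjusted p 0.152). Pecam1 differed by -0.24 (adjusted p 0.475), Cdh5, the vascular cadherin, by 0.27 (adjusted p 0.519) and Tie1 by 0.07 (adjusted p 0.863). The summed intensity of the 16 members was 2063 to 2128 in the 6 h arrays and 3261 to 3977 in the 12 h arrays. Such a sum follows its brightest members and includes the 7 called genes, so it is not separate evidence of a rise of the list. The count of 7 depended on single arrays. It was 1 without 12 h replicate 3 and 2 without 12 h replicate 1. Without 6 h replicate 1, 2 or 3 it was 4, 2 and 4, and without 12 h replicate 2 it was 6. With scan day as a random block Etv2 alone of the 7 passed, at an adjusted p of 0.00188 (limma), within a range of 2.7e-06 to 0.00269 over all its alternatives. Lmo2 also passed in every alternative run, with adjusted p values of 2.11e-05 to 0.0108.

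**Figure D2:**
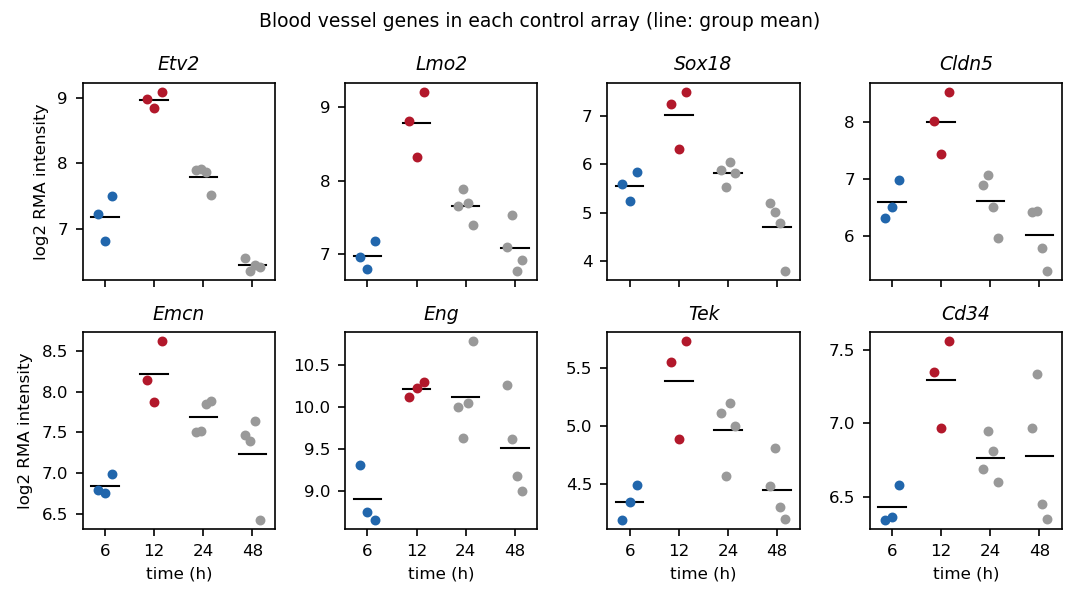
Log2 RMA intensity of 8 vessel genes in each of the 14 control arrays at 6 h (blue, n = 3), 12 h (red, n = 3), 24 h and 48 h (grey, n = 4 each), with the group mean as a line and a separate vertical scale for each gene. Every 12 h array lies above every 6 h array in all 8 genes, and the 24 h means lie below the 12 h means.

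Red cell genes gave a smaller set of differences, beside 2.67% of all genes called higher and 2.21% lower. Of 14 measured genes of a 17-gene blood list 2 rose, Hbb-y, an embryonic beta globin (0.88 ± 0.22, adjusted p 0.0395), and Tal1, and 0 fell, with a median of 0.04. With scan day as a random block 0 passed (limma, adjusted p 0.215 for Hbb-y and 0.113 for Tal1), and likewise 0 without 12 h replicate 1 or 3, with 1 left without any one of the 6 h arrays. The Hbb-y rise was carried by the probe set 97180_f_at, whose suffix marks probes that can match related globins, and the other differed by 0.12 (adjusted p 0.77). The alpha globin Hba-a1 differed by 0.02 (adjusted p 0.96), the embryonic globin Hbb-bh1 by -0.04 (adjusted p 0.949) and Gata1, a red cell transcription factor, by -0.09 (adjusted p 0.853). The summed intensity of the list was 1052 to 1071 at 6 h and 1098 to 1411 at 12 h. Of 18 measured macrophage markers (of 20) 0 passed, with Lyz2 at -0.23 (adjusted p 0.724) and Mrc1 at 0.17 (adjusted p 0.68) and a median of -0.05. Their summed intensity was 1051 to 1152 at 6 h and 1041 to 1062 at 12 h. Arg1, an arginase known from liver and from activated macrophages, was one of the largest rises, from 7.23, 7.32 and 7.31 to 8.77, 8.34 and 8.87 (1.38 ± 0.32, adjusted p 0.0272). It stood at 6.41 to 7.69 in the 24 h arrays, so the 12 h arrays were the highest of the controls. The Arg1 call was lost without any one array but 12 h replicate 2 (limma, adjusted p 0.0767 to 0.117). It was also lost with scan day as a random block (adjusted p 0.0946).

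The promoters of the 3 members of the endothelium list with the largest rise are shown because these members rose together. They are RefSeq sequences of GRCm38.p6, from 250 bases before to 50 after the annotated start, read in the direction of the gene, with the letters AGGAAG (or CTTCCT on the other strand), a core that ETS factors can bind, in capitals. Etv2 lies at chr7:30635803-30636102 on the minus strand, Cldn5 at chr16:18776597-18776896 on the plus strand and Emcn at chr3:137340828-137341127 on the plus strand.
Etv2: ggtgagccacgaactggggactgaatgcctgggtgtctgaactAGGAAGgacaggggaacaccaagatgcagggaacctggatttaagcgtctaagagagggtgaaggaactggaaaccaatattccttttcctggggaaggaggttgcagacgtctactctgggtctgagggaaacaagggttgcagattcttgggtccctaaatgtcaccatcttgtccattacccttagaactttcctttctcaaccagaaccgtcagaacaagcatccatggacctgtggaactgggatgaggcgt
Cldn5: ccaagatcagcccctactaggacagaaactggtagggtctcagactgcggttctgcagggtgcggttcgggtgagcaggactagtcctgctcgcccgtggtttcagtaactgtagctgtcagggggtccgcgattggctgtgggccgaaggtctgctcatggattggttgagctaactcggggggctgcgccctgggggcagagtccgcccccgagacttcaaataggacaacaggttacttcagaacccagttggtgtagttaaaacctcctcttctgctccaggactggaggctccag
Emcn: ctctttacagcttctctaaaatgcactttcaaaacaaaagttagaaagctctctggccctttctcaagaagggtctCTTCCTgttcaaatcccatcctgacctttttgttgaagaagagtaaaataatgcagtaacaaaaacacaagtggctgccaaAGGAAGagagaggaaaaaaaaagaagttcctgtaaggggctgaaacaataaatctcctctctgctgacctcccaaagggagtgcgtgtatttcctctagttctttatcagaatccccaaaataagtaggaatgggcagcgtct
The motif, which overlaps no other motif searched, was found in 4 of the 7 members that rose (Etv2, Emcn, Eng and Cd34) and in 35.4% of all 32851 promoters of the table. Absence of a match says that these letters are not in this window.

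Genes of tight junctions and cell adhesion were among the largest falls. Of 37 measured genes of a 38-gene adhesion list 0 rose and 4 fell, Sdc4, Cldn6, Cldn7 and Epcam, with a median of -0.05, beside 2.21% of genes called lower. Cldn6, Cldn7 and Epcam also belong to the list of surface ectoderm and epithelium, where they were the 3 falls among 24 measured genes (of 26; 0 rose, median -0.02).

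Sdc4 encodes syndecan-4, a cell surface heparan sulfate proteoglycan that acts with integrins on fibronectin. Its levels were 8.55, 9.07 and 9.31 at 6 h and 6.28, 5.83 and 5.98 at 12 h. The groups were more than 2 log2 units apart, and the fall was -2.95 ± 0.39 (SE; 7.70-fold, adjusted p 0.00176 by limma). It passed under every alternative run. The culture on fibronectin before the hours were counted is stated for the 6 h explants alone, and its part in this fall was not tested. Cldn6, a claudin of embryonic epithelia, was at 8.85, 9.23 and 9.04 at 6 h and 6.89, 6.58 and 7.02 at 12 h, a fall of -2.21 ± 0.35 (4.62-fold, adjusted p 0.00459) that also passed in every alternative. Cldn7 fell from 8.36, 8.51 and 8.54 to 6.68, 6.80 and 6.51 (-1.81 ± 0.36, adjusted p 0.0136) by a probe set whose suffix, _f_at, marks probes that can match related transcripts. In both claudins each group was tight, with SDs of 0.10 to 0.23. Epcam, an adhesion molecule of epithelial cells, fell from 5.17 ± 0.28 to 4.38 ± 0.17 (SD, n = 3 each; -0.78 ± 0.18, adjusted p 0.0285).

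The other measured epithelial genes did not pass. Cldn4 was at -0.99 but did not pass (adjusted p 0.104), and E-cadherin, Cdh1, was at -0.28 (adjusted p 0.37). The keratin genes Krt8 and Krt18 had differences of 0.37 (adjusted p 0.79) and 0.80 (adjusted p 0.534), and Krt19 of 0.06 (adjusted p 0.958). The summed intensity of the epithelial list was 8803 to 9413 at 6 h and 7520 to 11626 at 12 h, so the groups overlapped. N-cadherin, Cdh2, was at 9.23, 9.97 and 9.74 at 6 h and 9.09, 9.35 and 9.02 at 12 h, which overlapped (-0.50, adjusted p 0.473). The integrin genes measured did not pass, with the fibronectin receptor subunit Itga5 at -0.41 (adjusted p 0.108) and Itgb1 at 0.06 (adjusted p 0.875). Without 1 array at a time the adhesion list kept 2 to 4 falls and the epithelial list 1 to 3. The lowest counts were reached without 6 h replicate 2 or 3 or without 12 h replicate 1 or 3. With scan day as a random block the falls were 2 and 1.

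**Figure D3:**
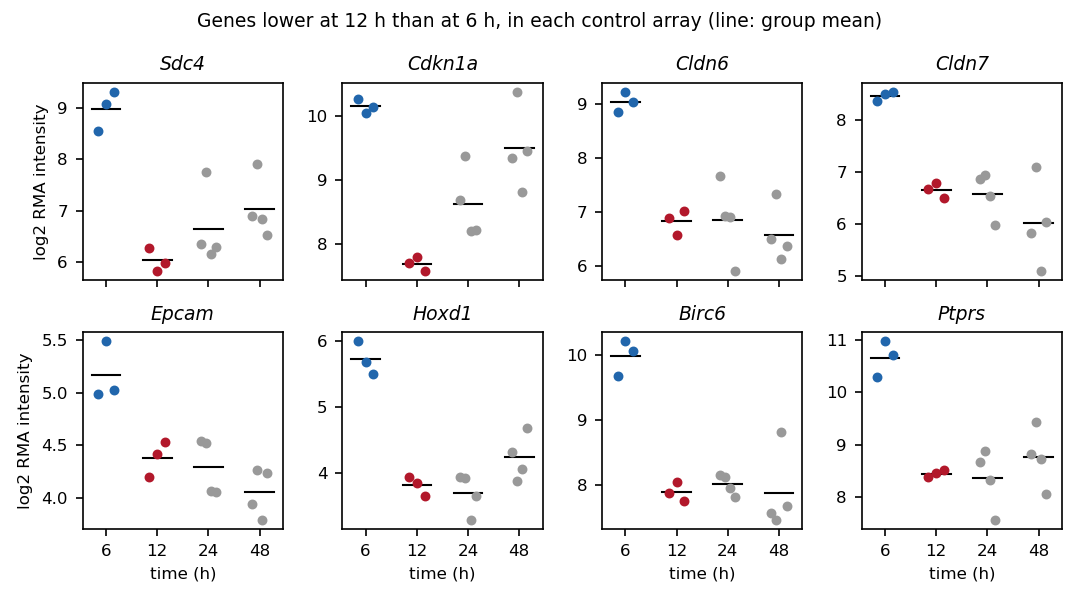
Log2 RMA intensity of 8 genes lower at 12 h than at 6 h in each of the 14 control arrays, drawn as in the plot of vessel genes, with a separate vertical scale for each gene. The 6 h arrays (blue) lie above the 12 h arrays (red) in all 8 genes, and Cdkn1a and Sdc4 have 1 high array each at 24 h and at 48 h.

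The cell cycle inhibitor gene Cdkn1a, which encodes p21, a p53 target that blocks cyclin-dependent kinases, was lower at 12 h. Its levels were 10.27, 10.05 and 10.14 at 6 h and 7.70, 7.79 and 7.58 at 12 h, a fall of -2.47 ± 0.33 (SE; 5.53-fold, adjusted p 0.00176). The groups were tight and far apart, and the call held under every alternative run. A second Cdkn1a probe set was at -1.15 and did not pass (adjusted p 0.0853). Later control arrays lay between both groups or reached the 6 h level, at 8.20 to 9.38 at 24 h and 8.81 to 10.38 at 48 h. It was the one fall among 17 measured CDK inhibitors and p53 targets (of 26), of which 0 rose and whose median was -0.14. The share called lower over all genes was 2.21%. The p53 targets Mdm2 and Ccng1 differed by -0.07 (adjusted p 0.943) and -0.38 (adjusted p 0.723), and the inhibitor Cdkn1c by 0.26 (adjusted p 0.455).

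Of 50 measured genes of cell cycle and DNA replication (of 56), 5 rose and 3 fell, with a median of 0.14, beside 2.67% of all genes called higher and 2.21% lower. The rises were Fen1, a flap endonuclease of lagging strand synthesis (0.88 ± 0.23, adjusted p 0.0418), Pola1, the catalytic subunit of DNA polymerase alpha (0.85 ± 0.17, adjusted p 0.0155), and Bub1, a kinase of the spindle checkpoint (0.84 ± 0.16, adjusted p 0.0105). Kif20a, a kinesin of cytokinesis, and Mki67, the proliferation marker Ki-67, rose by 0.71 (adjusted p 0.0165) and 0.66 (adjusted p 0.0286). The other two Bub1 probe sets differed by 0.25 (adjusted p 0.455) and -0.46 (adjusted p 0.331). The largest fall was that of Cks2, a small subunit of cyclin-dependent kinase complexes, from 11.30, 11.39 and 11.60 to 9.89, 9.86 and 9.97 (-1.52 ± 0.21, adjusted p 0.00198). Its 12 h arrays lay within 0.11 of each other. Ccnd3, a D-type cyclin, fell by 0.72 on the log2 scale (adjusted p 0.0308) and E2f1, a transcription factor of S phase entry, by 0.61 (adjusted p 0.0155). Ccna2 and Top2a, with differences of 0.60 (adjusted p 0.0595) and 0.85 (adjusted p 0.0738), did not pass. Cks2 passed in every alternative run, and it was the one call of the list with scan day as a random block (0 higher, 1 lower). The 5 rises became 0 without 12 h replicate 1 or 3, 1 without 6 h replicate 1, 3 and 2 without 6 h replicate 2 or 3 and 4 without 12 h replicate 2. The 3 falls became 1 or 2, whichever of the 6 was left out.

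Several of the largest differences rested on 1 probe set of a gene. Of the 30 genes with the largest differences 16 had further probe sets, and in 12 of these no other probe set passed in the same direction. Actb, cytoplasmic beta-actin, rose by 1.99 ± 0.48 (adjusted p 0.0318) on a dim probe set, 95705_s_at, from 3.22, 3.39 and 4.45 to 5.06, 5.54 and 6.42, while its bright probe set, 101578_f_at, differed by 0.19 (adjusted p 0.732). The Actb call was lost without any one array but 6 h replicate 3 and with scan day as a random block (limma, adjusted p 0.0653). Rbm39, a splicing factor, fell by 3.06 on the log2 scale by 94689_at, and its other probe set was at 0.66 (adjusted p 0.295). Clcn3, a chloride and proton exchanger of endosomes, fell in 2 of 4 probe sets, by 3.47 and 2.29, and was at -0.06 (adjusted p 0.953) and 0.17 (adjusted p 0.597) in the other two. Gna13, a G protein alpha subunit, fell by 1.97 in one probe set (adjusted p 0.0374) and was at -0.03 in the other (adjusted p 0.959). Gsdme, a gasdermin that forms pores in dying cells, fell by 2.45 (adjusted p 0.00238) against 0.22 in the other (adjusted p 0.516). Which transcript or part of a transcript each probe set reads was not analysed here.

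Some of these probe sets also split the later arrays. Clcn3 (94464_at) was at 7.60, 7.46 and 7.49 at 6 h and 4.03, 3.95 and 4.16 at 12 h, then at 4.42, 7.29, 4.41 and 3.40 in the 24 h arrays and 3.41, 6.76, 5.05 and 3.86 in the 48 h arrays. One 24 h array and one 48 h array thus stood near the 6 h level, and both carry replicate number 2. Rbm39 (94689_at) was at 8.26, 7.51 and 7.56 at 6 h and 4.89, 4.99 and 4.27 at 12 h, with 7.05 in 24 h replicate 2 and 4.52 to 4.75 in the others of 24 h. At 48 h Rbm39 was at 6.76 in replicate 2 and 6.59 in replicate 3, against 4.30 and 4.42 in the others. Gna13 (100514_at) was at 6.00, 6.25 and 6.10, then 4.18, 3.97 and 4.30, with 6.14 in 24 h replicate 2 and 6.19 in 48 h replicate 2. Styx, a catalytically dead phosphatase, was at 6.57, 6.34 and 6.11, then 4.16, 4.37 and 4.21, a fall of -2.10 ± 0.46 (adjusted p 0.0196). It was at 5.95 in 24 h replicate 2 and 5.77 in 48 h replicate 2. The array of 24 h replicate 2 was scanned on another day, with a chip of another lot, than the others of 24 h, which shared scan days with the 12 h arrays. In all 4 genes the calls were lost whichever of the 6 arrays was left out and with scan day as a random block, where the adjusted p values (limma) were 0.183, 0.142, 0.199 and 0.129. Over all their alternatives, adjusted p values ran from 2.23e-07 to 0.183 for Clcn3, 0.000109 to 0.142 for Rbm39, 3.49e-05 to 0.199 for Gna13 and 3.83e-05 to 0.129 for Styx.

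Xist, the noncoding RNA made from the inactive X chromosome of females, moved across arrays in a like order. It was at 5.59, 6.33 and 6.32 at 6 h, at 4.56, 4.63 and 4.58 at 12 h and at 7.26 in 24 h replicate 2, against 4.46 to 4.66 in the others of 24 h. In 48 h replicate 2 Xist was at 5.83, against 4.37 to 5.25 in the others of 48 h. The groups did not overlap, yet the difference of -1.49 ± 0.58 did not pass (adjusted p 0.187), nor did that of the Y-linked gene Eif2s3y, at -0.71 (adjusted p 0.0986), among 4 measured sex-linked genes (of 6; 0 passed, median -0.37). The sex of the embryos is not given in the labels, and its part in the results, like that of scan day and lot, was not tested.

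**Figure D4:**
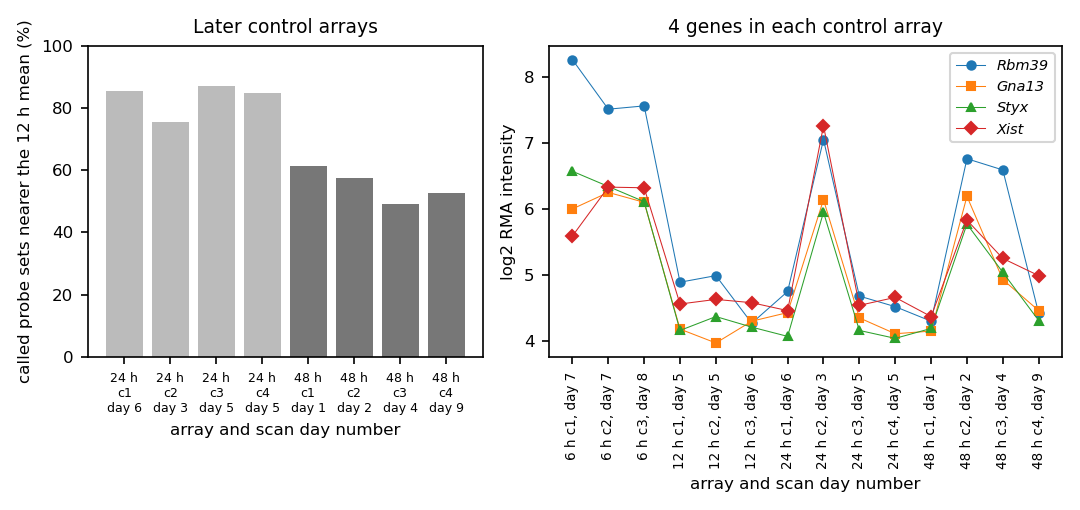
Left, percentage of the 531 called probe sets whose level was nearer to the 12 h than to the 6 h mean in each later control array, with replicate and scan day number below each bar. Right, log2 RMA intensity of Rbm39, Gna13, Styx and Xist in all 14 control arrays: the 6 h arrays, 24 h replicate 2 and 48 h replicate 2 are high in all 4 genes, and the 12 h arrays and the other 24 h arrays are low.

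The remaining large rises were spread over functions. Snw1, a co-regulator of transcription and splicing, rose by 1.68 ± 0.31 (adjusted p 0.00888), from 6.81, 5.27 and 5.86 to 7.70, 7.52 and 7.75, with an SD of 0.78 among the 6 h arrays and 0.12 among the 12 h arrays. It did not pass with scan day as a random block (limma, adjusted p 0.0744). A second, dimmer probe set of Snw1 was at -0.38 (adjusted p 0.261). Ncoa4, a receptor for the autophagy of ferritin, rose from 6.96, 7.21 and 7.23 to 8.74, 8.48 and 8.28 (1.37 ± 0.17, adjusted p 0.00132), and Fyn, a Src family kinase, from 8.08, 8.47 and 8.25 to 9.73, 9.20 and 9.45 (1.19 ± 0.18, adjusted p 0.00319). A second, dim Ncoa4 probe set differed by -0.03 (adjusted p 0.966). Lypla1, an enzyme that removes palmitate from proteins, rose by 1.26 ± 0.22 (adjusted p 0.0065) in the probe set 101946_at. Of its other 4 probe sets 3 were brighter and did not pass. They differed by 0.06 (adjusted p 0.935), 0.02 (adjusted p 0.982) and 0.30 (adjusted p 0.267). The remaining probe set passed (0.63, adjusted p 0.0109) but was dim, at 3.58 at 6 h and 4.20 at 12 h. The rises of Ncoa4, Fyn and Lypla1 passed in every alternative run, for Lypla1 by 101946_at. Ccar1, a regulator of cell cycle and apoptosis, rose by 1.23 (adjusted p 0.0272) and Parp1, a DNA damage sensor, by 1.15 (adjusted p 0.0196). A second, brighter Ccar1 probe set differed by 0.78 and did not pass (adjusted p 0.0902). The suffix of the Parp1 probe set, 101957_f_at, marks probes that can match related transcripts. Neither Ccar1 nor Parp1 passed with scan day as a random block, with adjusted p values (limma) of 0.135 and 0.0603 in ranges of 0.000381 to 0.135 and 0.00013 to 0.1.

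The remaining large falls were Ptprs, Sema4b, Birc6, Mlf2 and Prr13. Ptprs, a receptor tyrosine phosphatase that binds heparan and chondroitin sulfate proteoglycans, fell from 10.30, 10.97 and 10.71 to 8.38, 8.45 and 8.51 (-2.22 ± 0.33, adjusted p 0.00319). Sema4b, a transmembrane semaphorin, fell from 8.16, 7.24 and 7.60 to 5.40, 5.54 and 5.42 (-2.21 ± 0.30, adjusted p 0.00176) in 1 of 3 probe sets. The suffix of that Sema4b probe set, 95387_f_at, marks probes that can match related transcripts. Birc6, a large ubiquitin-conjugating inhibitor of apoptosis, fell from 9.67, 10.21 and 10.06 to 7.87, 8.05 and 7.76 (-2.09 ± 0.27, adjusted p 0.00153). In each of the 3 the 12 h arrays lay closer together than the 6 h arrays. Mlf2 fell by 1.74 on the log2 scale (adjusted p 0.00098) and Prr13 by 1.71 (adjusted p 0.00347). These 5 falls, with Gsdme, passed in every alternative run.

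Genes of the extracellular matrix moved in both directions. Of 40 measured (of 44) 3 rose and 2 fell, with a median of 0.08, beside 2.67% of all genes called higher and 2.21% lower. The same shares stand beside the other lists of this paragraph. Tgfbi, a secreted matrix protein induced by TGF-beta, was at 7.24, 7.24 and 6.97 at 6 h and 8.42, 8.39 and 8.46 at 12 h (1.27 ± 0.33, adjusted p 0.042). It stood at 8.43 to 10.28 at 48 h. A dim second Tgfbi probe set differed by -0.22 (adjusted p 0.673). The basement membrane genes Nid2 and Lamb1 rose by 1.12 ± 0.27 (adjusted p 0.029) and 0.84 ± 0.14 (adjusted p 0.00594), whereas Lamc1, another laminin chain, fell by 0.47 on the log2 scale (adjusted p 0.0471). Second probe sets of Lamb1 and Lamc1 differed by 0.49 (adjusted p 0.0744) and -0.12 (adjusted p 0.778). Col1a1, the alpha 1 chain of type I collagen, fell from 10.92, 11.22 and 11.28 to 9.75, 10.25 and 10.02 (-1.14 ± 0.24, adjusted p 0.0155). A second Col1a1 probe set was at -0.93 and did not pass (adjusted p 0.147). Its partner chain Col1a2 differed by -0.02 (adjusted p 0.992), and Fn1, fibronectin, by 0.16 (adjusted p 0.607). Of 24 measured matrix proteases and inhibitors (of 27) 0 rose and 1 fell, Timp1, an inhibitor of metalloproteases (-0.64, adjusted p 0.0199), with a median of -0.06. A dim second Timp1 probe set was at -0.41 (adjusted p 0.24). Of 24 measured genes of smooth muscle and contractile cytoskeleton (of 26) 0 rose and 1 fell, Tgfb1i1, a focal adhesion protein (-0.65, adjusted p 0.00599), with a median of 0.10. Of 14 measured cartilage and bone genes (of 22) 1 rose and 0 fell, the link protein gene Hapln1 (0.94, adjusted p 0.0308), with a median of 0.01. The calls of Tgfbi, Nid2 and Lamc1 were lost whichever of the 6 arrays was left out, at adjusted p values (limma) of 0.087 to 0.145, 0.0582 to 0.14 and 0.0654 to 0.187. The call of Col1a1 was lost without 6 h replicate 2 or 3 or 12 h replicate 1 or 3, that of Timp1 without any one array but 12 h replicate 2 and that of Hapln1 without any one array but 6 h replicate 3. With scan day as a random block Lamb1 and Tgfb1i1 alone of the genes of these 4 lists passed.

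Of 41 measured members of the integrin and serum response list (of 47) 0 rose and 3 fell, with a median of 0.00. Over all genes 2.21% were called lower. The 3 falls were Jund, an AP-1 subunit, from 10.65, 10.91 and 10.61 to 9.60, 9.59 and 9.71 (-1.09 ± 0.15, adjusted p 0.00176), Phlda1 (-0.89, adjusted p 0.00845) and the MAP kinase phosphatase gene Dusp1 (-0.86 ± 0.13, adjusted p 0.00347). Dusp1 stood at 9.78 to 10.08 at 24 h and at 10.46 to 10.95 at 48 h, the latter about the 6 h level of 10.41 to 10.53. Horse serum is named in the labels for the night before the 6 h count, and its part in these falls was not tested.

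Of 40 measured genes of the TGF-beta and BMP pathway (of 42) 0 rose and 3 fell, with a median of -0.06, beside 2.21% of all genes called lower. The 3 were Id4, Msx2 and Smad7. Id4, a BMP-responsive inhibitor of differentiation, fell from 7.13, 7.37 and 7.36 to 6.10, 6.13 and 6.17 (-1.15 ± 0.19, adjusted p 0.00599). Msx2, a homeobox target of BMP, fell from 9.65, 8.68 and 8.73 to 7.89, 8.07 and 7.83 (-1.09 ± 0.23, adjusted p 0.0158), with the first 6 h array well above the others. Smad7, the inhibitory SMAD of the pathway, fell from 7.73, 7.81 and 7.79 to 6.73, 6.90 and 6.86 (-0.95 ± 0.20, adjusted p 0.0155). The groups were close within themselves for Id4 and Smad7. Id4 alone of the 3 passed with scan day as a random block and without 12 h replicate 1 or 3, and with that block Msx2 and Smad7 had adjusted p values (limma) of 0.116 and 0.0607. Of 44 measured genes of FGF, Notch, Eph and hedgehog signalling (of 54) 1 rose and 3 fell, with a median of 0.01, beside 2.67% of all genes called higher and 2.21% lower. None of the 4 passed with scan day as a random block (0 calls in the list), nor without 6 h replicate 2, 12 h replicate 1 or 12 h replicate 3. Gli1, a transcription factor and target of hedgehog signalling, rose by 0.63 (adjusted p 0.0308). The ephrin ligand genes Efnb2 and Efna2, whose proteins guide crest migration, fell by 0.68 (adjusted p 0.0146) and 0.47 (adjusted p 0.0421), and Hes1, a Notch target, by 0.54 (adjusted p 0.0334). The calls of Hes1 and Efna2 were lost whichever of the 6 arrays was left out. Of 37 measured Wnt pathway genes (of 42) 0 passed and the median was -0.05. The Wnt inhibitor genes Sfrp1 and Dkk1 had the largest differences of that list, -0.84 (adjusted p 0.396) and -0.80 (adjusted p 0.068).

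Of 29 measured growth factor genes of the IGF and neurotrophic list (of 36) 0 rose and 1 fell, Bdnf, with a median of -0.04. Over all genes 2.21% were called lower, a share that also stands beside the retinoid list below. Bdnf, a neurotrophin that supports sensory neurons, was at 10.01, 9.80 and 9.73 at 6 h and 8.34, 8.99 and 8.71 at 12 h (-1.17 ± 0.19, adjusted p 0.00488). In the later arrays it stood at 9.09 to 9.86 at 24 h and at 10.42 to 10.70 at 48 h, so the 12 h arrays held the lowest levels. Of 19 measured genes of retinoid metabolism and receptors (of 24) 0 rose and 1 fell, the orphan receptor gene Nr2f2 (-0.94 ± 0.22, adjusted p 0.0252), with a median of 0.01. A second, dim Nr2f2 probe set differed by -0.19 (adjusted p 0.523). Neither Bdnf (limma, adjusted p 0.0581) nor Nr2f2 (adjusted p 0.135) passed with scan day as a random block, and Nr2f2 passed without 6 h replicate 1 but not without any other of the 6 arrays.

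Hox genes mark position along the body axis. Of 32 measured Hox and TALE homeobox genes (of 38) 0 rose and 2 fell, Hoxa5 and Hoxd1, with a median of -0.08, beside 2.21% of all genes called lower. Hoxd1 fell in both of its probe sets: from 6.00, 5.69 and 5.51 to 3.94, 3.86 and 3.66 in one (-1.91 ± 0.21, adjusted p 0.000576) and from 6.57, 6.45 and 6.40 to 5.83, 5.61 and 5.74 in the other (-0.75 ± 0.18, adjusted p 0.0297). The larger fall passed in every alternative that tested it (the filter on dim probe sets left it out), and the smaller one was lost whichever of the 6 arrays was left out, at adjusted p values (limma) of 0.0791 to 0.108. Hoxa5 fell from 8.22, 9.03 and 8.83 to 7.60, 8.05 and 7.24 (-1.06 ± 0.24, adjusted p 0.023), with SDs of 0.42 and 0.41, and its call was lost with scan day as a random block (limma, adjusted p 0.17) and without 6 h replicate 2 or 3 or 12 h replicate 1 or 3. The TALE gene Pbx2 was at -0.77 and did not pass (adjusted p 0.0555).

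Of 24 measured neural crest genes (of 30) 0 rose and 1 fell, Msx2, with a median of -0.08, beside 2.67% of all genes called higher and 2.21% lower. The list had 0 calls with scan day as a random block and without 12 h replicate 1 or 3. Sox10, a transcription factor of migrating crest, differed by -0.16 ± 0.22 (adjusted p 0.822), from 7.42 ± 0.20 to 7.26 ± 0.11 (SD, n = 3 each). Foxd3, an early crest factor, differed by 0.19 (adjusted p 0.472), Tfap2a by -0.38 (adjusted p 0.239) and Pax3 by -0.50 (adjusted p 0.228). Snai1 and Snai2, which encode repressors of E-cadherin in the epithelial to mesenchymal transition, were at -0.59 (adjusted p 0.0573) and -0.56 (adjusted p 0.395) without overlap of the groups. Neither passed, and 16.4% of all probe sets tested were lower without overlap. Crabp1, a retinoic acid binding protein of crest, was at 0.75 (adjusted p 0.219). The summed intensity of the crest list was 7339 to 7948 at 6 h and 7053 to 8429 at 12 h.

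Of 26 measured neuronal genes (of 30) 0 rose and 2 fell, with a median of -0.01, beside 2.21% of all genes called lower. Stmn2, a microtubule regulator of growing neurites, fell from 8.96, 8.91 and 8.55 to 7.77, 7.95 and 7.86 (-0.95 ± 0.16, adjusted p 0.00599), in a second probe set by 0.70 (adjusted p 0.0485) and differed by -0.09 in the third (adjusted p 0.877). Syt1, a synaptic vesicle calcium sensor, fell from 4.38 ± 0.17 to 3.59 ± 0.03 (SD, n = 3 each; adjusted p 0.0156), both below the 25th percentile of the arrays. The call of Syt1 was lost with scan day as a random block (limma, adjusted p 0.0707) and without 6 h replicate 1 or any one of the 12 h arrays. Tubb3, a neuronal tubulin, differed by 0.21 (adjusted p 0.686). Of 20 measured neural progenitor genes (of 25) 0 passed, with Sfrp1 and Cdh2 the largest and a median of -0.04. Sox2 differed by 0.04 (adjusted p 0.986) and Nes, nestin, by 0.35 (adjusted p 0.256). Of 11 glial genes measured (of 14) 0 passed, with Egr2 at 0.74 (adjusted p 0.133), Sparcl1 at 0.57 (adjusted p 0.242) and a median of -0.16. Of 7 melanocyte genes measured (of 12) 0 passed, with Kit at -0.14 (adjusted p 0.761), Pmel at -0.12 (adjusted p 0.841) and a median of -0.06. Of 30 measured genes of mesoderm and skeletal muscle (of 33) 0 passed, the largest being Myh3 at 0.86 (adjusted p 0.359) and Meox1, a somite gene, at 0.60 (adjusted p 0.0907), with a median of 0.14. Their summed intensity was 8009 to 8292 at 6 h and 8959 to 10488 at 12 h, without overlap. Sums without overlap were not particular to this list. They were also found for endothelium, blood, neurons, glia, matrix proteases, CDK inhibitors, heat shock, Hox, interferon and sex-linked genes. The interferon list had 6359 to 7028 at 6 h and 4394 to 4502 at 12 h. For heat shock the sums were 36745 to 40149 at 6 h and 42505 to 43963 at 12 h. The neuronal list had 4858 to 5112 at 6 h and 4708 to 4726 at 12 h. The glial list had 5485 to 5677 at 6 h and 4495 to 5122 at 12 h. Of 19 measured endoderm and notochord genes (of 23) 0 passed, with Rbp4 at -0.46 (adjusted p 0.715), Apoa4 at 0.31 (adjusted p 0.185) and a median of 0.02.

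**Figure D5:**
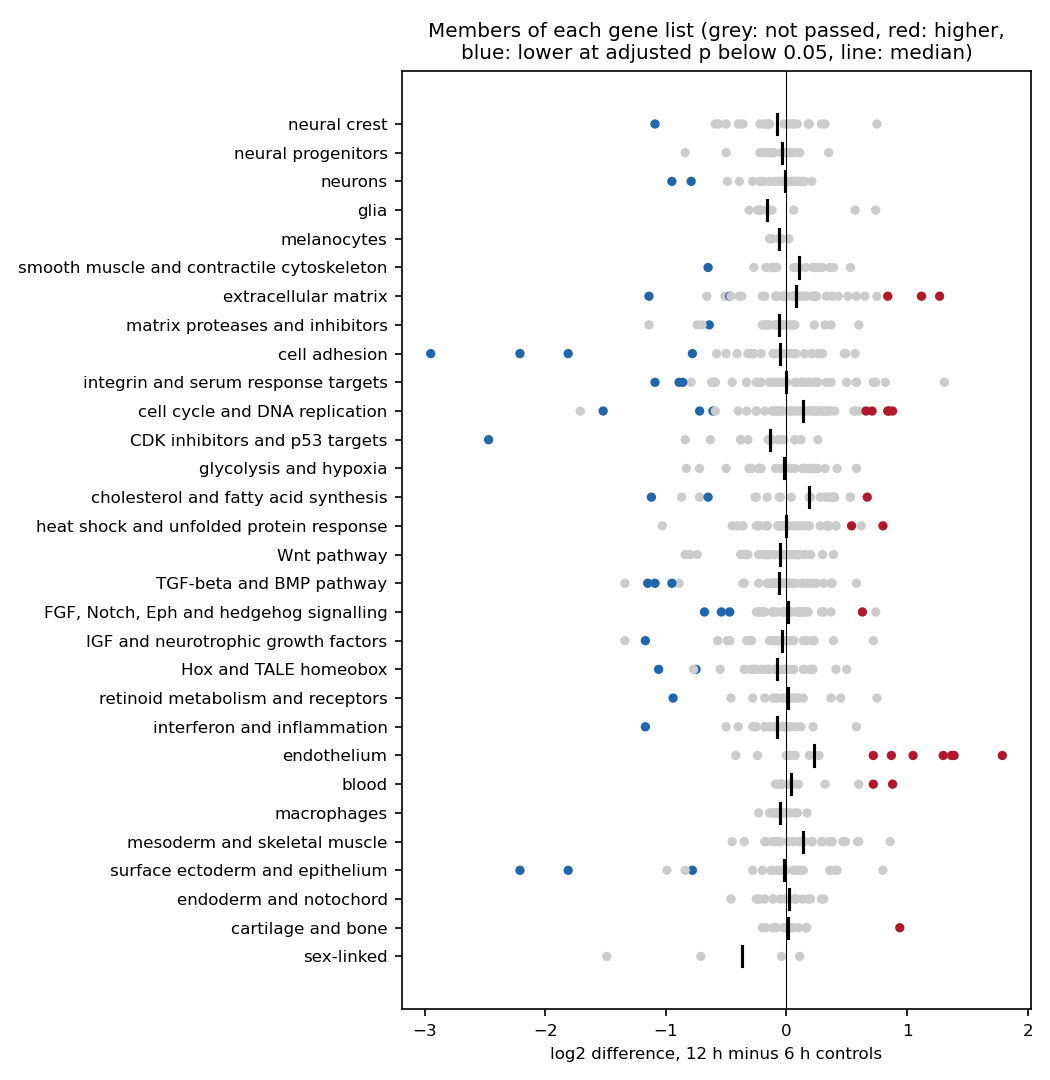
Log2 difference of 12 h minus 6 h controls for each measured member of the 30 gene lists, 1 probe set per gene, with members that passed in red (higher) or blue (lower) and the list's median as a line. The endothelium list holds 7 red points and no blue one, and the adhesion list 4 blue points and no red one.

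Of 23 measured genes of cholesterol and fatty acid synthesis (of 32) 1 rose and 2 fell, with a median of 0.19. These counts, and those of the other lists here, stand beside 2.67% of all genes called higher and 2.21% lower. Idi1, of the isoprenoid pathway, rose by 0.67 (adjusted p 0.0241), and the sterol isomerase gene Ebp and the desaturase gene Scd1 fell by 1.12 (adjusted p 0.00933) and 0.65 (adjusted p 0.0392). The list had 0 calls with scan day as a random block, and its falls became 0 without 12 h replicate 1 and its rise 0 without any other of the 6 arrays. Of 38 measured genes of heat shock and the unfolded protein response (of 41) 2 rose and 0 fell, with a median of 0.00. They were Herpud1, a component of endoplasmic reticulum protein disposal (0.80 ± 0.16, adjusted p 0.0125), and Asns, asparagine synthetase (0.54 ± 0.12, adjusted p 0.0196), whose second probe set rose by 0.89 (adjusted p 0.0139). The list had 0 calls with scan day as a random block and without 6 h replicate 3 or 12 h replicate 1. Of 27 measured genes of glycolysis and hypoxia (of 35) 0 passed, with P4ha1 at -0.83 (adjusted p 0.134), the glucose transporter gene Slc2a1 at -0.72 (adjusted p 0.267) and a median of -0.02. Of 25 measured interferon and inflammation genes (of 32) 0 rose and 1 fell, B2m, the light chain of MHC class I, with a median of -0.08. B2m was at 11.37, 11.33 and 11.25 at 6 h and 10.04, 10.40 and 10.00 at 12 h (-1.17 ± 0.19, adjusted p 0.00441), and it stood at 9.96 to 10.45 at 24 h.

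The comparisons of later control arrays give the setting of the early change. They share the 12 h and 24 h arrays with it and with each other, so their counts are given side by side alone. From 12 to 24 h 2 probe sets (0.0161%) passed, 0 higher and 2 lower, with 763 at an unadjusted p below 0.05 (limma), against 2122 from 6 to 12 h. From 24 to 48 h 73 passed (0.588%), 26 higher (0.209%) and 47 lower (0.378%), with 1363 at an unadjusted p below 0.05. Both falls from 12 to 24 h were in genes that rose from 6 to 12 h: Etv2 (-1.18, adjusted p 0.00774) and Ltb, which encodes lymphotoxin beta and was named after its values were seen. Ltb was at 7.06, 7.20 and 7.10 at 6 h, 8.08, 8.45 and 8.03 at 12 h and 6.43 to 7.11 at 24 h. Of the 12 h and 24 h arrays all but 24 h replicate 2 shared 2 scan days and 1 chip lot, while the 6 h and 48 h arrays had scan days of their own. Without 1 array at a time the count from 12 to 24 h ran from 0 to 5 and that from 24 to 48 h from 8 to 183, the latter without 48 h replicate 3, an array titled as a control whose description calls it RA treated.

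Over the 531 probe sets called between 6 and 12 h, the 24 h arrays stood nearer to the 12 h mean in 85.3%, 75.3%, 87.0% and 84.6% of cases, in the order of their replicate numbers. The 48 h arrays did so in 61.4%, 57.6%, 49.2% and 52.7%. The 24 h array with the lowest share was replicate 2. It was the one 24 h array nearer to the 6 h mean in 58 probe sets, against 13, 12 and 19 for the others. These shares are a description, since the 12 h levels were used to call the probe sets. Without 24 h replicate 2 in the fit the count between 6 and 12 h was 606, of which 511 were among the 531.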

How the data were processed

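Total RNA of murine neural crest explants was measured on 27 Affymetrix MG_U74Av2 arrays. Per the labels' protocols the authors normalised the data with RMA Express 0.2 and used GeneSpring afterwards, and the deposited values are linear intensity values from 3.92 to 17003. No source used here says whether GeneSpring changed them. RMA makes no call on whether a probe set is detected, and it shrinks differences of dim ones. From the deposited intensity values log2 was taken once. Of 12488 probe sets 66 array controls were left out and 12422 tested, of which 10833 named 1 gene by the platform annotation, 396 several and 1193 none (8251 genes, with 0 symbols updated through assembly GRCm38.p6). Scan day, chip lot and operator came from the scanner records, with 9 days and 7 lot entries in all.

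The 14 control arrays in 4 groups entered 1 linear model in limma 3.58.1 (R 4.3.3), without a block. It left 10 residual degrees of freedom, and variances were moderated by empirical Bayes. The contrast 12 h minus 6 h was tested two-sided and adjusted over all 12422 probe sets (Benjamini-Hochberg), with a threshold of 0.05. Lists used the probe set with the highest mean over the controls for each gene. Named genes were the 15 largest rises and 15 largest falls past the threshold, up to 6 members past it of each list, or the 2 largest differences where none passed. Other genes of a list are named for their role, with their values known. The comparison, lists and named genes were chosen with earlier results of these data known. Nothing says that the arrays came from separate cultures, so p values reflect how far these arrays spread, which may be technical, and their number limits the precision. No 2 arrays held identical values. Equal replicate numbers at 6 and 12 h correlated by -0.073, -0.088 and 0.167 across probe sets after removal of group means and were not read as pairs. The fit was tested on simulated data.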

Additional observations from a re-analysis of the deposited data

Results flagged for a closer look

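In groups of 4 control arrays, the gap of 1 array to the nearest other was set against the group's range for the 24 h and 48 h levels of 87 probe sets of named genes, 174 groups in all. The gap exceeded the critical share of 0.829 in 9 groups. Chance alone marks about 1 in 20 groups, so 9 of 174 is about the number that chance gives. In 5 of the 9 the array was 24 h replicate 2, the 24 h array of another scan day and chip lot. There Rbm39 was at 7.05 (others 4.52 to 4.75), Sdc4 at 7.76 (6.16 to 6.35), Styx at 5.95 (4.04 to 4.16), Gna13 at 6.14 (4.11 to 4.43) and Xist at 7.26 (4.46 to 4.66). Rbm39, Sdc4, Styx and Gna13 were falls from 6 to 12 h, and for each of them that array stood nearer to the 6 h levels than the other 24 h arrays did. Idi1 was at 11.12 in 24 h replicate 3 (10.78 to 10.82) and Etv2 at 7.52 in 24 h replicate 4 (7.86 to 7.91). Birc6 was at 8.81 in 48 h replicate 3 (7.46 to 7.67), the array with the conflicting description, and Pmel, a melanosome gene, at 7.26 in 48 h replicate 4 (6.43 to 6.50).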

How the results depend on the processing

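The count of 531 (275 higher, 256 lower) was within 1.5 times with all 27 arrays, without 48 h replicate 3, with a replicate block (496), median centring, cyclic loess, without the 30% dimmest probe sets, with an intensity trend, and without 24 h replicate 2 (606, 297 higher and 309 lower). It became 1924 (1001 higher, 923 lower) with the 6 arrays alone, 2351 (1217 and 1134) with array weights and 124 (56 and 68) with scan day as a random block, at a correlation of 0.501 within a day. Leaving out 1 of the 6 arrays gave 150 to 302 (66 to 168 higher, 84 to 150 lower). Of the 30 largest differences 15 passed with scan day as a random block and 16 to 22 without 1 of the 6 arrays (16, 17, 17 and 18 in the 4 fits that moved it by over 1.5 times). In every alternative that tested them 15 passed, and 5 of the 30 were among the dimmest left out. Over the 87 named probe sets, 1465 alternative values had the main direction, of which 272 lost a call and 23 gained one. The replicate block left 426 of the 531, and numbers were not read as pairs. From 12 to 24 h the count of 2 became 7 with all arrays, 1 with the replicate block, 38 with scan day, 216 with array weights and 0 to 5 without 1 array. From 24 to 48 h the count of 73 became 134 with all arrays, 183 without 48 h replicate 3, 14 with scan day, 40 with array weights and 8 to 183 without 1 array. The cause of these shifts was not tested. The settings of the later comparisons and the fit without 24 h replicate 2 were chosen after seeing the data. Only 12 called probe sets lay below the 25th percentile in both groups, where RMA compresses differences.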
